A study of Mus musculus with 9 samples.

Results

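The 10 genes described here encode the contents and accessory proteins of cytotoxic granules. They are the granzymes Gzma, Gzmb, Gzmc and Gzmk, the pore-forming protein Prf1, the granule proteins Nkg7, Ctsw and Srgn, the surface receptor Crtam and the granzyme inhibitor Serpinb9. They were chosen by symbol from 39017 gene IDs in a table of RNA-seq counts, and all 10 had an ID in it. The 9 samples are RNA of CD4+ T cells, which are mostly helper cells, and come from the lymph nodes of C57BL/6 male mice. The series asks how the loss of Kdm6a, an X-linked demethylase of histone H3 lysine 27, alters gene expression in these cells. All samples carry the floxed/y Kdm6a allele. The 5 samples labelled WT (replicates 1, 3, 4, 5 and 9) are CD4-Cre (-/-), and the 4 labelled cKO (replicates 2, 6, 7 and 8) are CD4-Cre (+/-). Since Cre is carried by the cKO group alone, an effect of Cre and an effect of losing Kdm6a cannot be told apart. Cre under CD4 control also acts in T cell precursors in the thymus, which includes the cells that become CD8 T cells. The labels give no age and no stimulation, although the name of the deposited table contains the abbreviation "stim". Nor do they state whether each sample is a different mouse, so the p-values measure the spread among these 9 samples, and this spread could be of technical origin.

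Cytotoxic lymphocytes store granzymes, a family of serine proteases, in granules on a scaffold of the proteoglycan serglycin, the product of Srgn. On contact with a target cell the granules fuse with the plasma membrane, perforin opens a path into the target and granzymes cleave proteins there. Granzyme B cuts after aspartate and triggers apoptosis, and the serpin encoded by Serpinb9 blocks it within the lymphocyte itself. Natural killer and CD8 T cells are the best known users of this pathway, but activated and regulatory CD4 T cells can also make granzyme B, and some CD4 T cells acquire cytotoxic function.

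The sequences upstream of the 4 members on which the results turn are shown so that they can be set beside the values below. They are the 250 bases before each RefSeq start site (build GRCm38.p6), 5' to 3' on the strand of the gene, and Srgn has 2 start sites. Capitals mark matches on either strand to 4 motifs: the T-box motif AGGTGTNA, the Runx motif TGTGGT, the STAT motif TTCNNNGAA and the AP-1 motif TGANTCA.
Gzmb, minus strand, chr14:56262335-56262584: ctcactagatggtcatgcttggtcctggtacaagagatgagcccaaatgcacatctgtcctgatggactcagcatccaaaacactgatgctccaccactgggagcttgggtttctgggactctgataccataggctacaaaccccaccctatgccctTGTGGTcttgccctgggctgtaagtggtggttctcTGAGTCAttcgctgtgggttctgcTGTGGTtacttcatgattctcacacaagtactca
Nkg7, plus strand, chr7:43436888-43437137: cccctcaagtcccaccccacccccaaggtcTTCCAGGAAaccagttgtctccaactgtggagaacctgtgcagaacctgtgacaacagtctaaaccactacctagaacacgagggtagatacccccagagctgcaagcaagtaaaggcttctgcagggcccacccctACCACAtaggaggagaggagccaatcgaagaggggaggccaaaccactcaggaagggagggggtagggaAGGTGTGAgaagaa
Serpinb9, plus strand, chr13:33004291-33004540: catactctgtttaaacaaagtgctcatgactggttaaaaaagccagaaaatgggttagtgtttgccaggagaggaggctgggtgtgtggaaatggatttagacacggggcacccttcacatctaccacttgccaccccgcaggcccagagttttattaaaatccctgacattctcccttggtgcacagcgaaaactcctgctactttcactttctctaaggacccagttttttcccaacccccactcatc
Srgn, first start, minus strand, chr10:62527446-62527695: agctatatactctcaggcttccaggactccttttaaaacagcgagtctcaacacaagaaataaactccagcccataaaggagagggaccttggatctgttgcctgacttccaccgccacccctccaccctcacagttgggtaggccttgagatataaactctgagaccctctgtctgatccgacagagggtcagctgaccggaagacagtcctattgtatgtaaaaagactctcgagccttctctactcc
Srgn, other start, minus strand, chr10:62507758-62508007: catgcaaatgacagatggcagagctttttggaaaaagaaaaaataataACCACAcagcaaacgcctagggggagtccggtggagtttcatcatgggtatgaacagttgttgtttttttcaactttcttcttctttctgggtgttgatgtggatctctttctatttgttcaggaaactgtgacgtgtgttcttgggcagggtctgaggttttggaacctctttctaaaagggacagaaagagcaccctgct
Windows were found for 8 of the 10 genes, 9 windows in all, and not for Ctsw and Crtam. The Runx letters stood in 6 of the 9 windows, each in a different gene (Gzma, Gzmb, Gzmc, Prf1, Nkg7 and Srgn), beside 14.05% of all 32851 RefSeq windows of the same length. The T-box letters were in the Nkg7 window alone among the 9, beside 2.68% of all windows, the STAT letters also in that of Nkg7 alone, beside 7.02%, and the AP-1 letters in that of Gzmb alone, beside 6.75%. The Serpinb9 window held none of the 4. These are matches of letters and not measured binding.

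Total counts ran from 20587482 to 26387488 per library, and levels are given as CPM, the counts scaled to TMM-adjusted totals. Kdm6a itself, counted over the whole gene, was at 62.4, 60.04, 63.8, 63.4 and 63.8 CPM in WT 1, 3, 4, 5 and 9 and at 41.8, 42.7, 41.5 and 44.8 CPM in cKO 2, 6, 7 and 8. The groups did not overlap, and Kdm6a was 31.9% lower in cKO (log2 fold change -0.55, SE 0.04, edgeR adjusted p = 2.89e-05). The floxed exon is not named in the labels, and the remaining counts therefore could not be divided between deleted and retained exons and the 31.9% is not a measure of how much functional Kdm6a was lost. All 9 libraries showed the T cell label: Cd4 was at 873 ± 35.6 CPM in WT (SD, n = 5) and 957 ± 43.6 CPM in cKO (SD, n = 4), and the 7 CD4 T cell markers summed to 2009 to 2198 CPM and 2076 to 2195 CPM. Of the 7, 2 were called higher and 3 lower, with a median log2 fold change of -0.096. The 2 higher were Cd4 (log2 fold change 0.13, edgeR adjusted p = 0.0480) and Cd5 (0.23, edgeR adjusted p = 0.00130). The call of Cd4 was lost in 8 of 18 alternative settings. Cd8a stayed between 1.22 and 3.67 CPM. The mitochondrial share of counts ran from 2.31% to 2.46% in WT and from 2.42% to 2.72% in cKO. In bulk samples such as these, fewer cells of a type and less RNA per cell cannot be told apart.

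Per kilobase of exon, Srgn was the most abundant of the 10 genes in WT, at 72.3 CPM per kb, followed by Gzmb at 29.7 and Serpinb9 at 10.2 CPM per kb. Nkg7 (2.36), Ctsw (2.06) and Gzmc (1.53) came next, and their WT libraries overlapped with those of the neighbour in the order. Prf1 stood at 0.500 CPM per kb, Gzma at 0.342, Crtam at 0.191 and Gzmk at 0.0371 CPM per kb, with Prf1 and Gzma overlapping and likewise Gzma and Crtam. In cKO the same 3 genes led, with Srgn at 55.7, Gzmb at 39.2 and Serpinb9 at 13.5 CPM per kb, and there the libraries of Srgn and Gzmb overlapped.

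**Figure D1:**
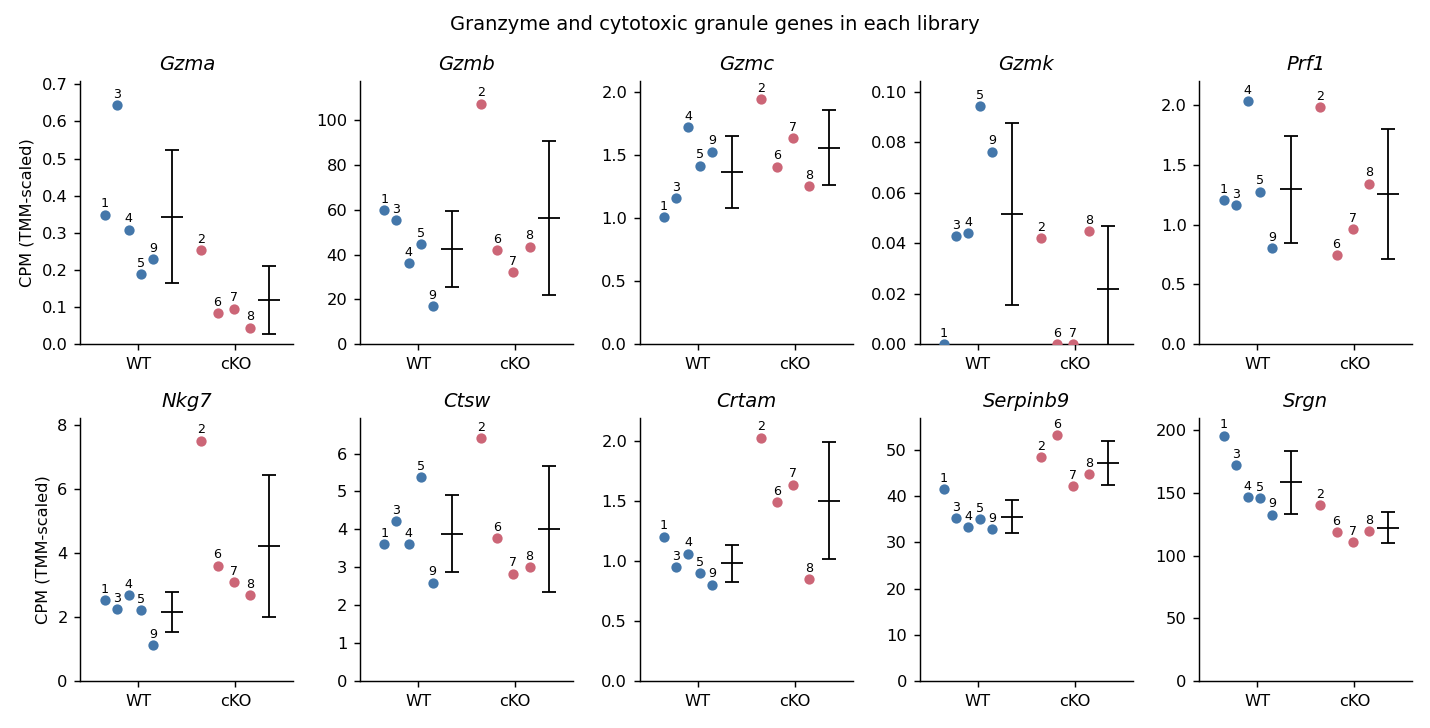
Level of each of the 10 genes in CPM (linear axes, 1 panel per gene) in the WT and cKO libraries, with points for libraries, replicate numbers beside them, and the mean with SD as bars. For Serpinb9 the lowest cKO library (42.1 CPM) lies above the highest WT library (41.6 CPM), whereas for Gzmb and Nkg7 the library cKO 2 stands far above the other cKO libraries.

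Serpinb9, the intracellular inhibitor of granzyme B, rose in cKO. The gene lies on chromosome 13 from 33003250 to 33017957 of mm10, on the plus strand. It was at 41.6, 35.2, 33.4, 35.0 and 32.8 CPM in WT 1, 3, 4, 5 and 9 and at 48.5, 53.2, 42.1 and 44.8 CPM in cKO 2, 6, 7 and 8. Every cKO library was above every WT library, although WT 1 came close to cKO 7. The means were 35.6 ± 3.50 CPM in WT (SD, n = 5) and 47.1 ± 4.82 CPM in cKO (SD, n = 4). The rise was 1.32-fold (log2 fold change 0.41, SE 0.08, 95% interval 0.25 to 0.56, edgeR adjusted p = 0.00791). It passed the threshold in all 18 alternative settings, with log2 fold changes of 0.33 to 0.47, and did not rest on cKO 2, which stood at 1.04 times the mean of the other 3 cKO libraries. Only 0.378% of the 50-base words of its transcripts occur in another gene, the paralog Serpinb9b.

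Srgn, the core protein of the granule proteoglycan on which granzymes are packed, fell in cKO. It lies on chromosome 10 from 62493833 to 62527451 of mm10, on the minus strand. Its level was 196, 172, 147, 146 and 133 CPM in WT 1, 3, 4, 5 and 9 and 140, 119, 111 and 120 CPM in cKO 2, 6, 7 and 8. The groups overlapped in a single pair, since cKO 2 exceeded WT 9. From 159 ± 25.2 CPM in WT (SD, n = 5) to 122 ± 12.5 CPM in cKO (SD, n = 4), the level was 23.0% lower (log2 fold change -0.38, SE 0.11, 95% interval -0.59 to -0.17, edgeR adjusted p = 0.0349). The call was less stable than that of Serpinb9. It was lost in 5 of the 18 settings: edgeR's robust estimate (adjusted p = 0.0598) and the edgeR fits without WT 3 (adjusted p = 0.0809), cKO 6 (0.0932), cKO 7 (0.0904) and cKO 8 (0.0881), all with the same sign.

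Among the granzymes, none passed the test. Gzmb, on chromosome 14 from 56258838 to 56262260 on the minus strand, was the only 1 of the 4 above 2 CPM. It was at 59.7, 55.4, 36.2, 44.6 and 17.1 CPM in WT 1, 3, 4, 5 and 9 and at 107, 41.9, 32.3 and 43.5 CPM in cKO 2, 6, 7 and 8. The library cKO 2 was the highest of all 9 and stood at 2.74 times the mean of the other 3 cKO libraries, which all lay within the WT range, and WT 9 was the lowest. The means of 42.6 ± 16.97 CPM in WT (SD, n = 5) and 56.3 ± 34.4 CPM in cKO (SD, n = 4) gave a log2 fold change of 0.41 (SE 0.38, 95% interval -0.34 to 1.15, edgeR adjusted p = 0.505). Without cKO 2 the value turned to -0.12 (SE 0.31, edgeR adjusted p = 0.842). With all 9 libraries Gzmb and Serpinb9 had the same fold change to 2 decimals, with an SE of 0.38 for Gzmb and 0.08 for Serpinb9.

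Gzmc, a granzyme gene of the Gzmb cluster on chromosome 14 (56231441 to 56234656, minus strand), was at 1.01, 1.16, 1.72, 1.42 and 1.53 CPM in WT 1, 3, 4, 5 and 9 and at 1.94, 1.41, 1.63 and 1.25 CPM in cKO 2, 6, 7 and 8. The groups overlapped widely, and the log2 fold change was 0.19 (SE 0.19, 95% interval -0.19 to 0.57, edgeR adjusted p = 0.536). Since 4.14% of the 50-base words of Gzmc are shared with neighbouring granzymes, a small part of its count depends on how the authors assigned such reads. Gzma and Gzmk encode granzymes that cut after basic residues and lie on chromosome 13, on the minus strand, from 113093825 to 113100981 and from 113171608 to 113225908. Both were too low to be tested. Gzma had 9, 15, 7, 4 and 6 counts in WT 1, 3, 4, 5 and 9 and 6, 2, 2 and 1 in cKO 2, 6, 7 and 8, and the groups overlapped through cKO 2. Fitted without a count filter, Gzma had a log2 fold change of -1.48 (SE 0.52, edgeR adjusted p = 0.09996), a value that depends on the prior count at this depth. Gzmk had 0, 1, 1, 2 and 2 counts in WT 1, 3, 4, 5 and 9 and 1, 0, 0 and 1 in cKO 2, 6, 7 and 8. In no library did it exceed the 3 counts that a count of 0 allows, so a difference in Gzmk was not detectable at this depth.

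Prf1, which encodes perforin (chromosome 10, 61297833 to 61304680, plus strand), was at 1.202, 1.16, 2.03, 1.27 and 0.802 CPM in WT 1, 3, 4, 5 and 9 and at 1.98, 0.745, 0.960 and 1.34 CPM in cKO 2, 6, 7 and 8. The 2 highest libraries were WT 4 and cKO 2, 1 from each group. The log2 fold change was -0.03 (SE 0.31, 95% interval -0.64 to 0.59, edgeR adjusted p = 0.968). Ctsw encodes cathepsin W, a cysteine protease of cytotoxic lymphocytes, and lies on chromosome 19 from 5465043 to 5468507 on the minus strand, where it shares 9 exonic bases with Fibp on the other strand. Its level was 3.60, 4.21, 3.62, 5.38 and 2.60 CPM in WT 1, 3, 4, 5 and 9 and 6.41, 3.77, 2.83 and 2.996 CPM in cKO 2, 6, 7 and 8. The cKO libraries other than cKO 2 lay within the WT range. The log2 fold change was 0.06 (SE 0.26, edgeR adjusted p = 0.900) with all libraries and -0.26 (edgeR adjusted p = 0.440) without cKO 2.

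Nkg7 and Crtam had the largest fold changes of the tested members, and neither passed the threshold. Nkg7 encodes a granule membrane protein needed for efficient degranulation and lies on chromosome 7 from 43437073 to 43438249 on the plus strand. It was at 2.52, 2.23, 2.69, 2.22 and 1.11 CPM in WT 1, 3, 4, 5 and 9 and at 7.51, 3.60, 3.07 and 2.68 CPM in cKO 2, 6, 7 and 8. All cKO libraries but cKO 8 were above every WT library, and cKO 8 lay just under WT 4. The means were 2.15 ± 0.618 CPM in WT (SD, n = 5) and 4.22 ± 2.23 CPM in cKO (SD, n = 4), a 1.97-fold difference (log2 fold change 0.98, SE 0.32, 95% interval 0.35 to 1.61, edgeR adjusted p = 0.0599). Without cKO 2 the log2 fold change was 0.54 (edgeR adjusted p = 0.156), while DESeq2 (adjusted p = 0.0190) and edgeR without a count filter (adjusted p = 0.0336) called it. The lowest library, WT 9, held 29 counts of Nkg7.

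Crtam encodes a surface receptor that marks CD4 T cells able to acquire cytotoxic function, and lies on chromosome 9 from 40969691 to 41004628 on the minus strand. Its level was 1.202, 0.945, 1.06, 0.897 and 0.802 CPM in WT 1, 3, 4, 5 and 9 and 2.02, 1.49, 1.63 and 0.850 CPM in cKO 2, 6, 7 and 8. In cKO 2, 6 and 7 it was above every WT library, and in cKO 8 it lay within the WT range. The log2 fold change was 0.61 (SE 0.24, 95% interval 0.15 to 1.07, edgeR adjusted p = 0.103), with 0.43 (edgeR adjusted p = 0.259) without cKO 2 and 0.80 (edgeR adjusted p = 0.0262) without cKO 8.

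Of the 8 tested members, Serpinb9 was called higher, Srgn lower, and 6 did not pass. Over all 14693 genes tested, 15.8% were called, 7.0% higher and 8.82% lower, so 1 member in each direction is close to the background. The CPM of the groups did not overlap for 1 of the 8 members (Serpinb9), beside 15.9% of all genes. At an unadjusted p under 0.05, 3 members were higher and 1 lower. The median log2 fold change of the 8 was 0.30, beside 0.0012 over all genes, and without cKO 2 it was -0.024.

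**Figure D2:**
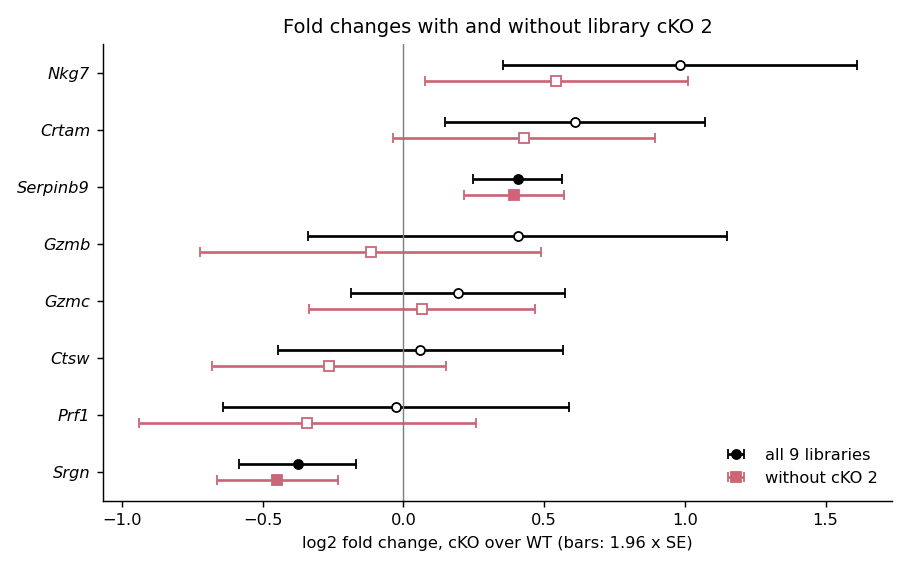
Log2 fold change, cKO over WT, of the tested members with all 9 libraries and without the library cKO 2, with bars for the 95% interval. Gzmb moves from 0.41 to -0.12 and Ctsw from 0.06 to -0.26 when cKO 2 is left out, Nkg7 from 0.98 to 0.54, and Serpinb9 stays to the right of 0 and Srgn to the left.

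The members differed in how far single libraries set their values. The library cKO 2 was the highest of the 9 for 5 of the 10 genes (Gzmb, Gzmc, Nkg7, Ctsw and Crtam), and WT 9 was the lowest for 5 (Gzmb, Nkg7, Ctsw, Crtam and Serpinb9). Relative to the mean of the other 3 cKO libraries, and leaving aside Gzma and Gzmk, which had at most 6 counts in any cKO library, cKO 2 stood at 2.74 times for Gzmb, 2.41 for Nkg7, 2.004 for Ctsw, 1.95 for Prf1, 1.53 for Crtam, 1.36 for Gzmc and 1.203 for Srgn. Gzmb took 34.0% of the counts of the 10 genes in cKO 2 and between 9.03% and 20.3% in the other 8 libraries. Serpinb9, at 1.04 times, differed least between cKO 2 and the other cKO libraries. Eomes encodes a T-box factor of cytotoxic differentiation. It was singled out with its values known, and was also highest in cKO 2. Its level was 11.3, 9.32, 9.35, 18.2 and 6.45 CPM in WT 1, 3, 4, 5 and 9 and 39.0, 17.8, 14.5 and 10.3 CPM in cKO 2, 6, 7 and 8 (log2 fold change 0.91, edgeR adjusted p = 0.115, and 0.39 with adjusted p = 0.384 without cKO 2).

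Some markers of other lymphocytes were also highest in cKO 2, and others were not. The 8 natural killer cell markers, none of which was abundant enough to be tested, summed to 0.573 to 1.01 CPM in WT and to 0.626 to 3.58 CPM in cKO, where 3.58 is cKO 2 and the other 3 libraries reached at most 1.10 CPM. Klre1, a natural killer cell receptor, had 4, 4, 4, 5 and 0 counts in WT 1, 3, 4, 5 and 9 and 32, 5, 4 and 1 in cKO 2, 6, 7 and 8, and Klrb1c, Klrc2 and Tyrobp, named like Ncr1 after their values were seen, were also highest in cKO 2, with 18, 16 and 12 counts. Ncr1 had 1 count there and 0 to 2 in the other libraries. Fcer1g was not raised in cKO 2, at 0.211 CPM beside means of 0.351 CPM in WT and 0.223 CPM in the other cKO libraries. Klra4 and Klra8, also named after their values were seen, were at 0 and 0.0422 CPM in cKO 2. The 4 gamma-delta T cell markers found summed to 3.45 to 4.12 CPM in WT and to 3.12 to 6.12 CPM in cKO, again with cKO 2 the highest, and edgeR called 0 of the 4 (1 higher and 1 lower at an unadjusted p under 0.05). Tcrg-C2 was highest in cKO 2, at 3.92 CPM, and so was Tcrg-C1, at 1.43 CPM, while Sox13 was lowest there, at 0.422 CPM, and Blk was at 0.337 CPM (both named after their values were seen). Of the 2 CD8 T cell markers, which summed to 11.9 to 15.1 CPM in WT and to 15.1 to 19.1 CPM in cKO, Cd8b1 rose (log2 fold change 0.28, edgeR adjusted p = 0.0296), a call lost in 6 of 18 settings, and Cd8a gave 0.58 (edgeR adjusted p = 0.217). Both were highest in cKO 2, with Cd8b1 at 15.4 CPM and Cd8a at 3.67 CPM. The settings that lost the call of Cd8b1 include the edgeR fit without cKO 2 (adjusted p = 0.0737). The part of these cells in the values of Gzmb, Nkg7, Ctsw and Crtam was not tested.

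Other populations that can hold granzymes or serglycin gave these values. The 6 mast cell and basophil markers summed to at most 0.233 CPM in WT and 0.224 CPM in cKO, with Mcpt8 at 0 in every library. The 6 regulatory T cell markers, led by Il2ra and Ctla4, summed to 3870 to 4427 CPM in WT and to 3246 to 3928 CPM in cKO, and 1 of the 6 rose and 1 fell, with a median log2 fold change of 0.11. Il2ra, the most abundant and the main part of the sum, fell (log2 fold change -0.31, edgeR adjusted p = 0.0190). The sum therefore mostly follows Il2ra and is not a measure of how many regulatory T cells were present. Ikzf2, named after its values were seen, rose without overlap (log2 fold change 0.46, edgeR adjusted p = 0.000651). Foxp3, also named after its values were seen, did not pass. Its mean was 103 CPM in WT and 111 CPM in the cKO libraries other than cKO 2, where it was lowest, at 74.1 CPM. Of the 4 plasmacytoid dendritic cell markers, Tcf4 (log2 fold change 0.80, edgeR adjusted p = 0.000252) and Bst2 (0.49, edgeR adjusted p = 0.0265) rose, the call of Bst2 being lost in 6 of 18 settings. The sum of the 4 was 45.8 to 68.3 CPM in WT and 70.5 to 95.4 CPM in cKO. The defining gene Siglech had 0 counts in all 5 WT libraries and at most 0.0422 CPM in cKO. Ly6d was at 0.104 CPM in WT (mean), 0.253 CPM in cKO 2 and 0.568 CPM in the other cKO libraries (mean). Siglech and Ly6d were named after their values were seen and were too low to be tested. B cell markers summed to 2.97 to 4.81 CPM and 2.46 to 3.98 CPM, and macrophage and monocyte markers to 16.0 to 20.3 CPM and 17.7 to 21.5 CPM. Most of the macrophage and monocyte sum was Csf1r and Cd68, with WT means of 14.3 and 2.76 CPM. Lyz2 and Adgre1, named after their values were seen, had WT means of 0.0166 and 0.0810 CPM. They were at 0 and 0.0422 CPM in cKO 2 and at 0.0618 and 0.0999 CPM in the other cKO libraries (means). In each of the B cell and the macrophage and monocyte lists 1 marker fell: Cd79b (log2 fold change -0.91, edgeR adjusted p = 0.0104) and Itgam (-1.82, edgeR adjusted p = 0.00297, named after its values were seen), from 1.72 to 0.911 CPM and from 1.34 to 0.373 CPM. No marker of either list was called higher, and 1 B cell marker was higher at an unadjusted p under 0.05. Cd79a gave -0.15 (edgeR adjusted p = 0.675), Csf1r 0.12 (edgeR adjusted p = 0.529) and Cd68 0.30 (edgeR adjusted p = 0.232). The part of these populations in the values of Serpinb9 and Srgn was not tested.

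**Figure D3:**
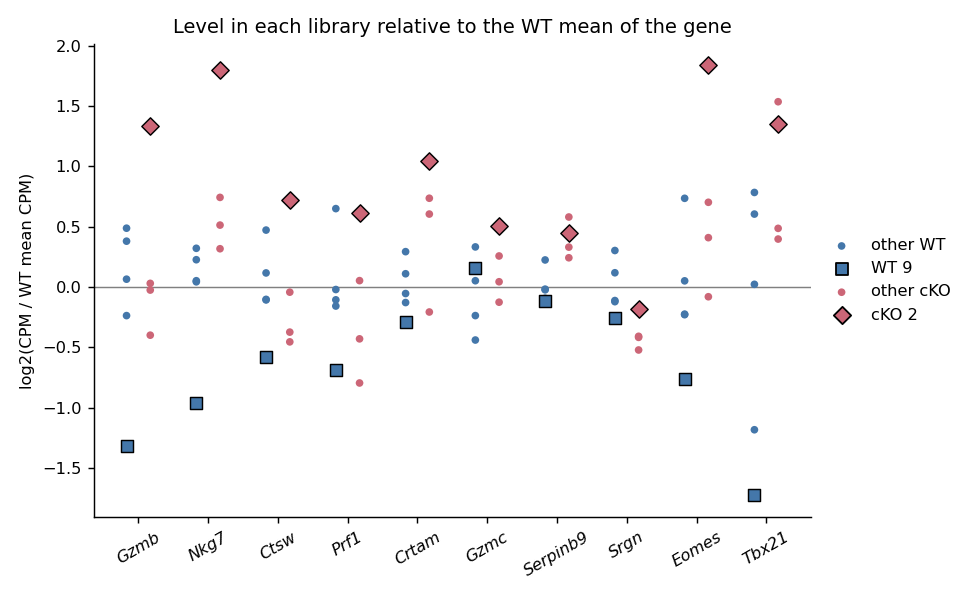
Log2 of each library's CPM over the WT mean of the gene, for the 8 tested members and for Eomes and Tbx21, with the libraries cKO 2 (diamond) and WT 9 (square) marked. The diamond is the highest point for Gzmb, Nkg7, Ctsw, Crtam, Gzmc and Eomes, and the square is the lowest for Gzmb, Nkg7, Ctsw, Crtam, Serpinb9, Eomes and Tbx21.

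Beyond the members, the pathway was read from lists of its other genes. Counts called in these lists, and in the marker lists above, stand beside 7.0% called higher and 8.82% lower over all genes tested. Of the 6 other granzymes, Gzmd, Gzme, Gzmg and Gzmn, named after their values were seen, had 0 counts in every library. A count of 0 allows up to 3 counts, or 0.114 to 0.146 CPM. The 2 tested ones did not pass in edgeR, nor at an unadjusted p under 0.05, nor by DESeq2 or limma-voom: Gzmf gave -0.54 (SE 0.33, edgeR adjusted p = 0.288), with 19.4% of its 50-base words shared with other genes, and Gzmm 0.30 (SE 0.27, edgeR adjusted p = 0.479). Of the 4 tested genes of granzyme processing, Ctsc and Cst7 fell and none rose (0 higher also at an unadjusted p under 0.05 and by DESeq2 and limma-voom), with a median log2 fold change of -0.11. Ctsc encodes cathepsin C, the protease that removes the activation dipeptide of progranzymes. It was at 101, 101, 105, 104 and 102 CPM in WT 1, 3, 4, 5 and 9 and at 93.2, 89.8, 94.1 and 91.1 CPM in cKO 2, 6, 7 and 8, with no overlap (log2 fold change -0.16, SE 0.03, edgeR adjusted p = 0.00771). Cst7 encodes cystatin F, an inhibitor of cathepsin C, so the 2 that fell include the activating protease and its inhibitor. Cst7 was at 14.2, 15.8, 9.88, 9.35 and 8.63 CPM in WT 1, 3, 4, 5 and 9 and at 8.18, 6.71, 6.05 and 6.57 CPM in cKO 2, 6, 7 and 8. The cKO libraries were all lower (log2 fold change -0.75, SE 0.19, edgeR adjusted p = 0.0206), a call lost without any of cKO 6, 7 or 8 (adjusted p up to 0.0588).

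The other intracellular serpins did not move as 1 group. Of 4 tested, 2 rose and 2 fell, with a median log2 fold change of 0.030, beside 7.0% higher and 8.82% lower over all genes. Serpinb6a, an inhibitor of trypsin-like and cathepsin G-like proteases, was at 24.7 ± 1.47 CPM in WT (SD, n = 5) and 19.1 ± 1.32 CPM in cKO (SD, n = 4) with no overlap (log2 fold change -0.37, edgeR adjusted p = 0.00383), and 25.1% of its 50-base words occur in other genes. Serpinb1a, an inhibitor of neutrophil serine proteases, was low and fell. It was at 0.802 ± 0.231 CPM in WT (SD, n = 5) and 0.233 ± 0.0792 CPM in cKO (SD, n = 4), with a log2 fold change of -1.79 (edgeR adjusted p = 0.00487). Serpinb6b gave 0.43 (edgeR adjusted p = 0.0274), a call lost in 6 of 18 settings, and Serpina3g, named after its values were seen, gave 0.72 (edgeR adjusted p = 0.0462), a call lost in 10 of 18 settings. The count of serpins called higher was 0 when WT 3, WT 4, WT 9, cKO 6 or cKO 8 was left out, and 1 by DESeq2 and limma-voom.

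Of the 14 tested genes of granule transport and fusion, 1 rose and 4 fell, with a median log2 fold change of -0.07. The shares over all genes tested were 7.0% higher and 8.82% lower. Sytl2, a synaptotagmin-like protein that ties Rab27a-bearing granules to the plasma membrane, was at 18.5, 19.0, 23.1, 20.1 and 22.7 CPM in WT 1, 3, 4, 5 and 9 and at 4.34, 4.72, 6.77 and 5.95 CPM in cKO 2, 6, 7 and 8. The groups lay far apart (log2 fold change -1.93, SE 0.13, edgeR adjusted p = 2.89e-05). Its paralog Sytl1 fell, with 38.9 ± 7.18 CPM in WT (SD, n = 5) and 18.2 ± 3.90 CPM in cKO (SD, n = 4), also without overlap (log2 fold change -1.10, SE 0.15, edgeR adjusted p = 0.00150). Lyst, the lysosomal trafficking regulator mutated in beige mice (log2 fold change -0.65, edgeR adjusted p = 0.0123), and Sytl3 (-0.46, edgeR adjusted p = 0.0364) also fell, both named after their values were seen. Lyst was at 77.3 CPM in cKO 2, just under the lowest WT library at 78.9 CPM, and at 47.7 CPM in the other cKO libraries (mean). The call of Lyst held in all 18 settings and that of Sytl3 was lost in 6, without WT 1, WT 3, WT 9, cKO 6, cKO 7 or cKO 8 (adjusted p up to 0.0966). Lamp2, a lysosomal membrane protein, rose, with 49.7 ± 2.22 CPM in WT (SD, n = 5), 58.7 ± 2.68 CPM in cKO (SD, n = 4) and a log2 fold change of 0.24 (edgeR adjusted p = 0.00633). Sytl2, Sytl1 and Lamp2 kept their calls in all 18 settings.

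Death receptor ligands are the other route by which T cells kill. A list of TNF family ligands, most of them of this kind, gave no call among 5 tested (median log2 fold change -0.13), and 1 was lower at an unadjusted p under 0.05. Tnfsf10, which encodes TRAIL, gave -0.17 (edgeR adjusted p = 0.122) and Fasl -0.60 (edgeR adjusted p = 0.168). DESeq2 and limma-voom also called 0, and the fit with 1 surrogate variable called Fasl.

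**Figure D4:**
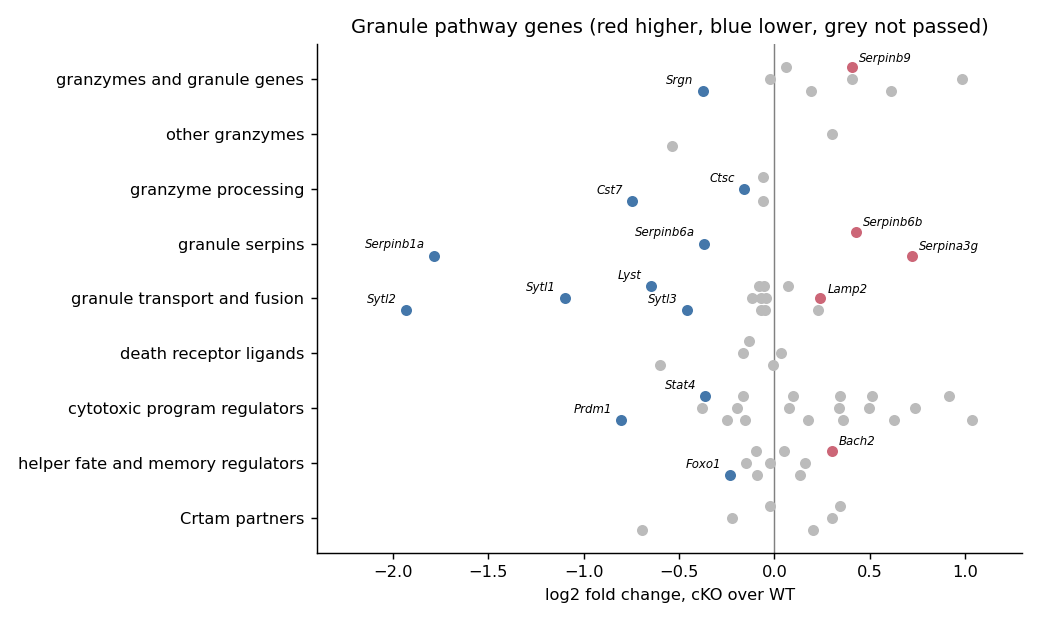
Log2 fold change, cKO over WT, of each tested gene in the member list and the pathway lists, with genes called by edgeR in red (higher) or blue (lower) and labelled, and the others in grey. Sytl2 (-1.93), Serpinb1a (-1.79) and Sytl1 (-1.10) lie farthest to the left, and most genes in the row of cytotoxic program regulators are grey.

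Of 19 tested genes of the cytotoxic program, 0 were called higher and 2 lower, with a median log2 fold change of 0.18. Over all genes tested, 7.0% were called higher and 8.82% lower. The list holds transcription factors and also genes of cytokines, chemokines and surface receptors. The unadjusted p was under 0.05 for 3 higher and 3 lower genes of the list, and 0 were called higher by DESeq2 or limma-voom. Without WT 1 the count called higher was 6, and with 1 surrogate variable it was 1. Prdm1, which encodes the repressor Blimp-1, was at 10.8, 13.8, 11.4, 13.9 and 8.02 CPM in WT 1, 3, 4, 5 and 9 and at 9.83, 4.93, 3.94 and 7.65 CPM in cKO 2, 6, 7 and 8, where cKO 2 was the 1 library above WT 9 (log2 fold change -0.81, SE 0.24, edgeR adjusted p = 0.0448). Stat4, the transducer of interleukin-12 signals, gave -0.36 (SE 0.10, edgeR adjusted p = 0.0351). It was at 63.7 CPM in cKO 2, within the WT range of 58.8 to 69.1 CPM, and at 45.4 CPM in the other cKO libraries (mean). The calls of Prdm1 and Stat4 were each lost in 7 of 18 settings. Tbx21, which encodes T-bet and was singled out with its values known, stood at 60.6, 35.8, 15.5, 53.5 and 10.7 CPM in WT 1, 3, 4, 5 and 9 and at 89.6, 102, 46.4 and 49.3 CPM in cKO 2, 6, 7 and 8. Its libraries overlapped, and the log2 fold change of 1.03 (SE 0.44, edgeR adjusted p = 0.134) did not pass. Tbx21 was called in 1 of the 18 alternative settings.

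Genes that hold CD4 T cells in a helper or memory state gave 1 call each way among 9 tested, with a median log2 fold change of -0.022. Beside these stand 7.0% called higher and 8.82% lower over all genes. Bach2, a repressor of effector differentiation, rose, with 271 ± 23.9 CPM in WT (SD, n = 5), 334 ± 19.4 CPM in cKO (SD, n = 4) and a log2 fold change of 0.30 (edgeR adjusted p = 0.00937). Foxo1, a factor of quiescence and memory, fell, with 280 ± 11.6 CPM in WT (SD, n = 5), 238 ± 12.1 CPM in cKO (SD, n = 4) and a log2 fold change of -0.23 (edgeR adjusted p = 0.00623). Both were without overlap and kept their calls in all 18 settings. The list of Crtam partners holds its ligand Cadm1, related receptors with their ligands, and a scaffold protein. Cadm1, named after its values were seen, was too low to be tested. It was at 0.126 CPM in WT (mean), 0.422 CPM in cKO 2 and 0.446 CPM in the other cKO libraries (mean). Among the 6 tested genes edgeR called 0 (median log2 fold change 0.090), with 1 higher and 2 lower at an unadjusted p under 0.05. DESeq2 called 1 of the 6 higher, and edgeR without a count filter called 1 of 7 higher. Cd96 gave 0.20 (edgeR adjusted p = 0.0635) and Tigit -0.70 (edgeR adjusted p = 0.143), and without cKO 2 the count called higher was 2. The count called lower was 2 with 1 surrogate variable and 1 without WT 9, with Tigit called in both (adjusted p = 0.00569 and 0.0333).

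The genes whose levels were most like those of the 3 members with the smallest adjusted p were sought among the 10664 genes whose mean reached 5 CPM. Pearson's r of log2 CPM over the 9 libraries is given as a description, since the libraries share the genotype difference and the scaling. The genes were also picked for the highest r in these same libraries. High values, with or without centring, are therefore partly a result of that choice. For Serpinb9 they were Pmm1 (r = 0.99, and 0.97 after centring within groups) and Carm1 (0.98 and 0.92). For Srgn they were Cst7 (0.96 and 0.91), from the granzyme processing list, and Tnfaip8 (0.96 and 0.92). For Nkg7 they were Ibtk (0.98 and 0.97) and Tanc2 (0.96 and 0.93). Among the members, Nkg7 followed Gzmb with r = 0.82 over the 9 libraries and 0.63 without cKO 2, and r between Serpinb9 and Srgn was -0.37 over the 9 libraries and 0.72 after centring within groups.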

How the data were processed

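RNA of 9 samples was measured by RNA-seq. Per the labels' protocols, a Direct-zol kit was used for extraction and a stranded KAPA kit, with an mRNA enrichment step, for the libraries. Raw counts of reads per gene were deposited by the authors as a single table, with no normalization, and each column was matched to a sample by its title (0 columns had no sample). Build mm10 and bcl2fastq 2.17 are listed in the submitters' processing notes. The sources used here name no aligner, counter, strand setting or annotation. Without a known strand setting, reads of overlapping genes on opposite strands may be mixed.

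The 39017 Ensembl IDs were given symbols (37607 matched), positions and exonic lengths from GENCODE M21, on the same build. The test was edgeR 4.0.16 in R 4.3.3: quasi-likelihood F test, TMM, filterByExpr, 5 WT against 4 cKO, no covariates, two-sided, Benjamini-Hochberg adjusted p below 0.05 over 14693 genes. CPM are counts over TMM-adjusted totals, log2 CPM had a prior count of 2, SE is the log2 fold change over the square root of F, and 95% intervals are normal intervals from that SE. Limits for a count of 0 are 3 counts of the total and reflect counting error alone, because PCR copies were not told apart by molecular identifiers. The computation was tested on simulated data.

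The 18 alternatives comprised scaling by upper quartiles or by DESeq2 size factors, omission of the count filter, a filter that asks for 1 CPM in 4 or more samples, DESeq2 1.42.0, limma-voom (limma 3.58.1) with and without sample weights, edgeR robust, 1 surrogate variable (sva 3.50.0) and leaving out each of the 9 samples. The text names all members, up to 3 called genes of each pathway list by adjusted p (or up to 2 by p where none was called), the 2 most abundant markers of a list where its result turns on them, Kdm6a, and the 2 genes most like each of 3 members. Markers with 0 counts in every library are also named. Other genes are said to be named after their values were seen. The members and lists were chosen with earlier results of these data known. Of the lists, 4 symbols (Vamp7, Trdc, Trgc1 and Trgc2) were not matched to the table and were not analysed here.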

Additional observations from a re-analysis of the deposited data

Results flagged for a closer look

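A gap between 1 library and the rest of its group, large for the range of the group by Dixon's criterion at the 95% level, was found in 4 of 108 groups tested; chance alone gives about 1 in 20. In the cKO group, Gzmb in cKO 2 (107 CPM) stood far above the other 3 libraries, and so did the natural killer cell receptor gene Klre1 in cKO 2 (1.35 CPM). In the WT group, Serpinb9 in WT 1 (41.6 CPM) was high, just under the lowest cKO library at 42.1 CPM, and so was Tcrg-C2 in WT 3 (1.89 CPM).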

How the results depend on the processing

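The rise of Serpinb9 and the fall of Kdm6a kept their direction and their call in all 18 alternatives, with adjusted p up to 0.0265 for Serpinb9. The count of members called higher was 2 in place of 1 without a count filter and by DESeq2, where Nkg7 was added, and ran from 1 to 2 when single libraries were left out (2 without cKO 8, where Crtam was added). The count called lower was 0 in place of 1 with edgeR robust and ran from 0 to 1 when single libraries were left out (0 without WT 3, cKO 6, cKO 7 or cKO 8). Over all genes, 2324 were called, and between 1263 (without cKO 6) and 2933 without 1 library, with 1528 without WT 4 and 1504 without cKO 8. The median log2 fold change of the tested members ran from -0.024 (without cKO 2) to 0.36 when single libraries were left out. The sign turned for Gzmb without cKO 2 (-0.12), for Prf1 without WT 4 (0.19), cKO 6 (0.17) or cKO 7 (0.08), and for Ctsw with voom sample weights (-0.17), with 1 surrogate variable (-0.17), without WT 9 (-0.06) and without cKO 2 (-0.26). It also turned for the marker Tcrg-C1, which gave -0.07 with all libraries, without WT 5 (0.020), cKO 6 (0.10) or cKO 7 (0.08). With single libraries left out, the ranges were -0.12 to 0.59 for Gzmb, -0.34 to 0.19 for Prf1, -0.26 to 0.20 for Ctsw and -0.33 to 0.10 for Tcrg-C1. Nkg7 had adjusted p from 0.0190 to 0.156 and Srgn from 0.000701 to 0.0932 over the alternatives. Among the list counts, genes of the cytotoxic program called lower were 5 with 1 surrogate variable and 0 with edgeR robust or without WT 3, WT 4, WT 5, cKO 6, cKO 7 or cKO 8, and regulators of the helper state called higher were 2 with sample weights, with 1 surrogate variable and without cKO 6. The cause of these changes was not tested. No paired analysis was possible because the groups share no replicate number. Depth kept Gzma and Gzmk from being tested; among tested members the SE was widest for Gzmb (0.38), which had at least 449 counts per library.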
